A study of Mus musculus with 6 samples.

Results

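The genes described here are 6 dual-specificity phosphatases of the mitogen-activated protein (MAP) kinases (Dusp1, Dusp2, Dusp4, Dusp5, Dusp6 and Dusp16) and 4 Sprouty and Spred inhibitors of Ras signalling (Spred1, Spred2, Spry1 and Spry2). They were taken by gene name from a table of 56748 mouse genes, and all 10 were found, each in a single row. RNA had been sequenced from RAW264.7 cells, an established mouse line with macrophage features. One group of 3 libraries came from cells given a lentivirus with the Fbxw11 vector (pMSCV-Fbxw11-pGk-GFP), called Fbxw11 libraries below, and the other group of 3 from cells given a lentivirus with the control vector, called control libraries. The control libraries are labelled GFP. Both groups were grown in the same serum-containing medium, and cells were sorted before RNA was extracted. No source used here states the gate of the sort, the number of clones or whether libraries within a group are separate cultures. Every p-value therefore reflects the spread among 3 libraries per group, and that spread may be technical only. No stimulus was named for either group.

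MAP kinases are switched on by phosphorylation of a threonine and a tyrosine in their activation loop. Dual-specificity phosphatases remove both phosphates, some in the nucleus and some in the cytoplasm, and differ in whether they prefer ERK, p38 or JNK. Sprouty and Spred proteins act further up, between growth factor receptors and Raf, and damp the activation of ERK. Many of these genes are themselves switched on by MAP kinase signalling and so form negative feedback loops, which in macrophages help to end the response to inflammatory signals. Fbxw11 is an F-box protein, the part of an SCF ubiquitin ligase that binds the substrate.

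Levels are given as FPKM, read fragments normalised for library size and for gene length, a level per length that allows genes to be compared. Recovered reads lay between 16191971 and 18951653 per library. Library 3 of each group stood apart from the other two: chi-square per degree of freedom over genes, where sampling noise alone gives about 1, was 5.15 and 4.44 against control libraries 1 and 2, which differed from each other by 2.42, and 5.86 and 4.73 against Fbxw11 libraries 1 and 2, which differed by 3.14. Without both of these libraries Dusp1 had a log2 fold change of 0.47 (limma adjusted p = 0.0144) and Spred1 of -0.27 (adjusted p = 0.0308). Fbxw11 itself, the gene on the vector, stood at 35.8, 36.5 and 36.0 FPKM in the control libraries and at 274, 272 and 268 FPKM in the Fbxw11 libraries, 7.51-fold higher, and reads from the vector and from the cell's own gene could not be told apart. Of 10 macrophage markers, all were tested, 4 rose (Adgre1, Itgam, Lyz2 and Fcgr1, named after their values were seen) and 0 fell. By the same test, described below, 4.60% of all tested genes rose and 4.64% fell. In the other direction, Csf1r was lower in every Fbxw11 library (145 to 150 FPKM against 151 to 159). Aif1 had a lower mean, and neither passed the threshold. The 10 markers summed to 4364 to 4545 FPKM in control and 4823 to 4950 FPKM in Fbxw11 libraries. Lyz2 alone gave 2305 to 2428 FPKM and 2583 to 2653 FPKM of these sums. Markers of fibroblasts, of T cells and of epithelial and endothelial cells each summed to at most 0.572 FPKM per list in any library, with Cd3g, Cd8a and Cdh1 at 0. Those of B cells summed to 6.40 to 6.70 FPKM in control and 4.87 to 6.20 FPKM in Fbxw11 libraries, and none of the 4 was called. In bulk RNA, fewer cells of a type and less RNA per cell cannot be told apart, and the part of the marker differences in the results below was not tested.

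Across the family, 1 phosphatase rose and 1 Ras inhibitor fell in the Fbxw11 libraries. Dusp1 was 1.35-fold higher and Spred1 was 16.8% lower. Of the other 8 genes, 7 did not pass the test and Spry1, at or near 0 in every library, was not tested. The test was limma on log2(FPKM + 1) of the 10898 genes averaging 1 FPKM or more, with Benjamini-Hochberg adjustment over all of them and a threshold of 0.05. By this rule 9.24% of all tested genes were called, 4.60% as risen and 4.64% as fallen, so 1 call in each direction among 9 tested members is a small count to set beside that background. The members' median log2 fold change was 0.10, against 0.0029 over all tested genes. By family it was 0.12 for the 6 phosphatases and -0.12 for the 3 tested Sprouty and Spred genes. The latter is the value of Spred2, which did not pass, and Spry2 had the opposite sign (0.15). The members were chosen with earlier results of these data known, so the counts and medians here are descriptions. In 4 members every Fbxw11 library lay above every control library, and in 2 every one lay below. The same held for 15.6% and 15.5% of all tested genes, 31.1% in either direction.

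**Figure D1:**
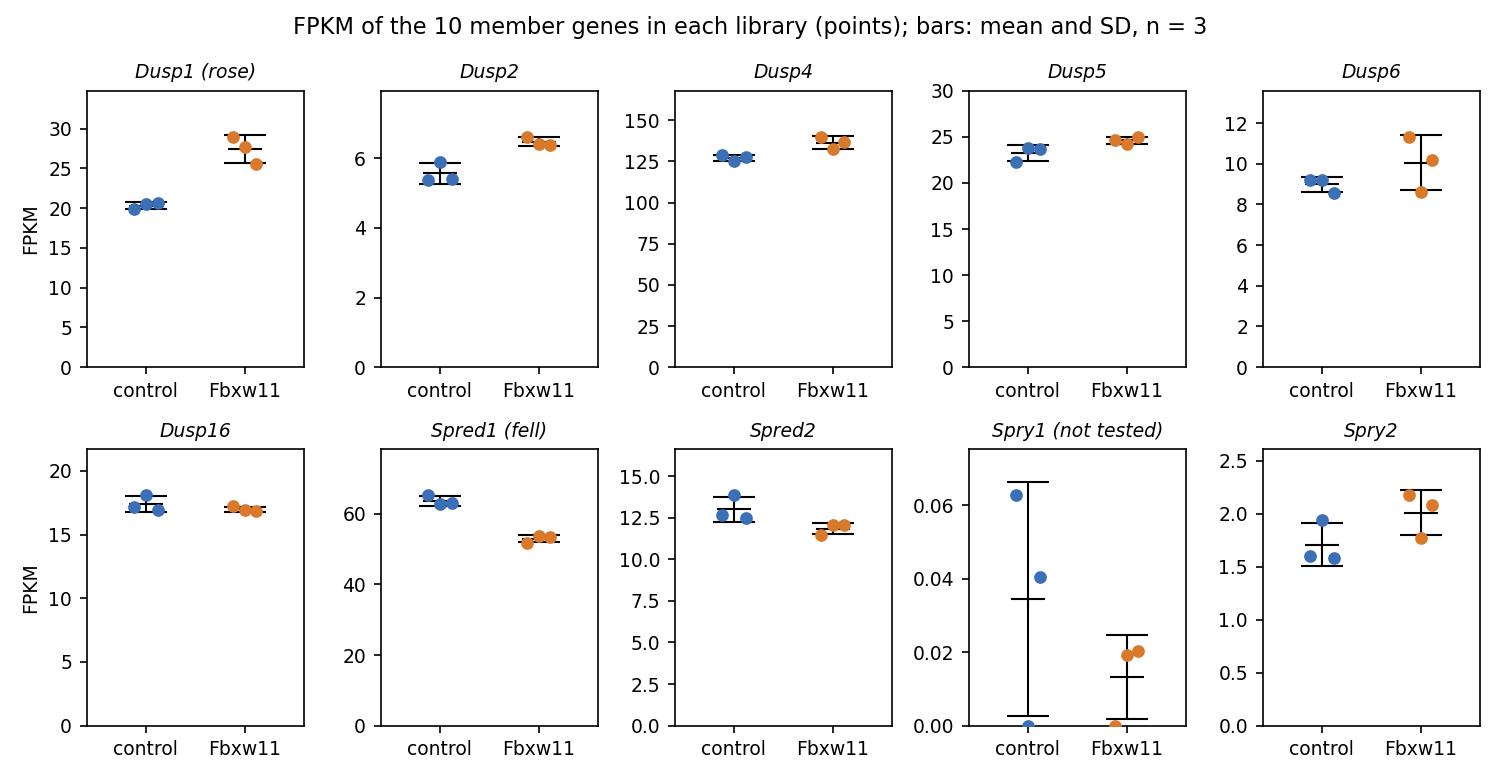
FPKM of each of the 10 genes in each library, with a linear axis from 0 in every panel, points for single libraries and bars for the mean and SD of 3 libraries. Dusp1 lies at 19.8 to 20.6 FPKM in control and 25.5 to 29.0 FPKM in Fbxw11 libraries, and Spred1 at 62.6 to 65.3 and 51.7 to 53.7 FPKM.

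Before the values, the upstream sequence of 4 members is shown, because Dusp1 and Spred1 are the members that changed and Dusp2 and Dusp5 hold the other complete elements found. Each run is the 250 bases before the RefSeq start of the gene in GRCm38.p6, read 5′ to 3′ on the gene's strand, at chr17:26508473-26508722 (minus strand) for Dusp1, chr2:127335909-127336158 (plus) for Dusp2, chr19:53528895-53529144 (plus) for Dusp5 and chr2:117120821-117121070 (plus) for Spred1. Capitals mark the cAMP response element TGACGTCA or its core TGACG, the E-box CACGTG and the CArG box of serum response factor, each searched on both strands, where the core lies within the full element and is marked with it.
Dusp1: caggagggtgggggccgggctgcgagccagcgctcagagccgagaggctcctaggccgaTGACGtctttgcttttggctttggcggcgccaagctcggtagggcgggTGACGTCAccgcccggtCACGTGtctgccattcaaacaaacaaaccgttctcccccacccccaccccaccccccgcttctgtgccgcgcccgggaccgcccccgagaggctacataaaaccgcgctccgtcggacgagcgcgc
Dusp2: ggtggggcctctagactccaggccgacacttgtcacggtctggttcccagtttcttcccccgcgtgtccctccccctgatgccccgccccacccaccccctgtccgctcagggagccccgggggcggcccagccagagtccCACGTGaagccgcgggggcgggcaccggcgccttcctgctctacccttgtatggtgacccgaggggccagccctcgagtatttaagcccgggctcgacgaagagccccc
Dusp5: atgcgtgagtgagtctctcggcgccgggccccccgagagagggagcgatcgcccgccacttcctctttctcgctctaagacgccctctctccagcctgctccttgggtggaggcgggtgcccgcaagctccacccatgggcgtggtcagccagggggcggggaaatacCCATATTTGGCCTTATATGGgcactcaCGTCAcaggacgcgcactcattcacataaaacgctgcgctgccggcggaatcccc
Spred1: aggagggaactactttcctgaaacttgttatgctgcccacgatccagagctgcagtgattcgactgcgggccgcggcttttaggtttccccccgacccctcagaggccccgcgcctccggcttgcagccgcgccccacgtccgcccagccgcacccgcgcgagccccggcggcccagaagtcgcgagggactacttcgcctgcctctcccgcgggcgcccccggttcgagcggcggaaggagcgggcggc
Dusp1 holds a full cAMP response element that begins 143 bases before the start, a further core at 191 bases and an E-box at 126 bases. The full element occurs in the same window of 1.55% of the 32851 RefSeq promoters, its core in 17.8% and the E-box in 6.02%. Dusp2 has an E-box at 109 bases. Dusp5 has a pair of adjacent CArG boxes, beginning at 82 and 72 bases, and a core at 55 bases on the other strand; a CArG box occurs in 1.47% of promoters. The Spred1 window holds none of the elements searched. Among the 9 members with a RefSeq entry, Dusp16 and Spred2 also have the core alone. An AP-1 site (TGAGTCA, found in 4.46% of promoters), an ETS site (CCGGAA, 12%), a TATA box spelled TATAAA (12.4%) and an NF-kB site (7.25%) were in none of the 9 windows. GC content was 56% to 70.8% in these windows, against a median of 52.4% over all promoters. The shares of promoters with each element were not matched for GC content. A match to these letters is a description and not a bound site.

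Dusp1 (ENSMUSG00000024190, chromosome 17) encodes a nuclear, inducible phosphatase that acts mainly on p38 and JNK and restrains cytokine production in macrophages. Its level was 19.8, 20.6 and 20.6 FPKM in control libraries 1 to 3 and 29.0, 27.7 and 25.5 FPKM in Fbxw11 libraries 1 to 3. Every Fbxw11 library lay above every control library, and the Fbxw11 libraries were the more widely spread. The means were 20.3 ± 0.435 FPKM and 27.4 ± 1.75 FPKM (SD, n = 3). Dusp1 rose by 0.41 on the log2 scale (SE 0.051, limma adjusted p = 0.00589), resting on 1080 to 1637 reads per library. Its annotated span overlaps that of Ergic1, on the opposite strand, by 640 bases; Ergic1 ran from 6.45 to 6.70 FPKM in control and from 5.96 to 6.86 FPKM in Fbxw11 libraries, ranges that overlap. A lncRNA on the opposite strand (ENSMUSG00000120402), overlapping by 379 bases, was at 0.160, 0.137 and 0.156 FPKM in control and 1.30, 0.148 and 0.619 FPKM in Fbxw11 libraries, high in Fbxw11 libraries 1 and 3 and within the control range in library 2, where Dusp1 was at 27.7 FPKM. On the same strand, the lncRNA Gm50275 overlaps Dusp1 by 1853 bases. It was at 0 FPKM in each control library and at 0, 0.0751 and 0.0787 FPKM in Fbxw11 libraries 1 to 3. No source used here says whether reads were counted by strand.

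Dusp2 (ENSMUSG00000027368, chromosome 2), another nuclear phosphatase, is induced in activated immune cells. It was measured at 5.37, 5.90 and 5.42 FPKM in control and 6.62, 6.40 and 6.39 FPKM in Fbxw11 libraries. The groups did not overlap, but the difference did not pass: 0.19 on the log2 scale (95% interval 0.074 to 0.30, limma adjusted p = 0.0592) at 177 to 229 reads per library. Across 14 other settings its adjusted p lay between 0.0533 and 0.25, never past the threshold.

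Dusp4 (ENSMUSG00000031530, chromosome 8), a nuclear phosphatase of ERK, p38 and JNK, was the most abundant member by far. It stood at 129, 125 and 127 FPKM in control and 140.1, 132 and 137 FPKM in Fbxw11 libraries, a level above that of 97.2% of tested genes. All Fbxw11 libraries were higher, by a small margin. The difference was 0.10 on the log2 scale (95% interval 0.021 to 0.18, limma adjusted p = 0.124), with 5805 to 6600 reads per library behind it.

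Dusp5 (ENSMUSG00000034765, chromosome 19) encodes a nuclear phosphatase specific for ERK. Values were 22.3, 23.8 and 23.7 FPKM in control and 24.6, 24.3 and 25.04 FPKM in Fbxw11 libraries. The Fbxw11 libraries were all higher on this scale, whereas the groups overlapped when values were rescaled to TPM (76.8 to 82.4 against 81.6 to 83.6) or divided by plain read sums. The log2 difference was 0.08 (95% interval -0.0091 to 0.17, limma adjusted p = 0.245).

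Dusp6 (ENSMUSG00000019960, chromosome 10), the cytoplasmic ERK phosphatase, is a widely used readout of ERK activity. It was at 9.18, 9.22 and 8.55 FPKM in control and 11.3, 8.62 and 10.2 FPKM in Fbxw11 libraries, where library 2 fell within the control range. The log2 difference of 0.14 had a 95% interval from -0.078 to 0.36 (limma adjusted p = 0.40), wide enough to hold no change or one nearly as large as that of Dusp1.

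Dusp16 (ENSMUSG00000030203, chromosome 6), a phosphatase of JNK and p38, was the only phosphatase of the 6 with a lower mean in the Fbxw11 libraries. Its level was 17.2, 18.1 and 16.9 FPKM in control and 17.2, 16.9 and 16.9 FPKM in Fbxw11 libraries, overlapping ranges. The log2 difference was -0.03 (95% interval -0.12 to 0.060, limma adjusted p = 0.67), at 2186 to 2713 reads per library. On TPM the groups separated, at 58.8 to 62.1 in control and 56.3 to 57.8 in Fbxw11 libraries, without passing the test.

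Spred1 (ENSMUSG00000027351, chromosome 2) brings neurofibromin, a GTPase-activating protein, to Ras at the membrane, and was the second most abundant member. Control libraries held 65.3, 62.6 and 62.9 FPKM and Fbxw11 libraries 51.7, 53.7 and 53.4 FPKM. All Fbxw11 libraries were lower, and the gap between the groups was wider than the range within either. Means were 63.6 ± 1.43 FPKM and 52.9 ± 1.07 FPKM (SD, n = 3). Spred1 fell by 0.26 on the log2 scale (SE 0.033, limma adjusted p = 0.00613), counted from 5713 to 8169 reads per library.

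Spred2 (ENSMUSG00000045671, chromosome 11), its close relative, had the same sign with a smaller difference. It was at 12.7, 13.9 and 12.5 FPKM in control and 11.4, 12.03 and 12.03 FPKM in Fbxw11 libraries. The groups did not overlap, and the log2 difference of -0.12 (95% interval -0.24 to -0.0066, limma adjusted p = 0.184) did not pass the test. Whether Spred1 and Spred2 differ in their change was not tested; within each library the ratio of Spred1 to Spred2 was 5.16, 4.52 and 5.04 in control and 4.52, 4.46 and 4.44 in Fbxw11 libraries, with almost no gap between control library 2 and Fbxw11 library 1.

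The Sprouty genes, whose products are induced by growth factors and block receptor signalling to ERK, were scarce. Spry2 (ENSMUSG00000022114, chromosome 14) lay at 1.603, 1.94 and 1.58 FPKM in control and 2.18, 1.77 and 2.08 FPKM in Fbxw11 libraries. Those ranges overlap, and at 55 to 78 reads per library the log2 difference of 0.15 had a 95% interval of -0.056 to 0.36 (limma adjusted p = 0.337). Spry1 (ENSMUSG00000037211, chromosome 3) was given 3, 0 and 2 reads in control and 0, 1 and 1 reads in Fbxw11 libraries, at most 0.0628 FPKM. A count of 0 allows up to 3 reads, counting error alone considered, so no difference was detectable at this depth and no fold is given.

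**Figure D2:**
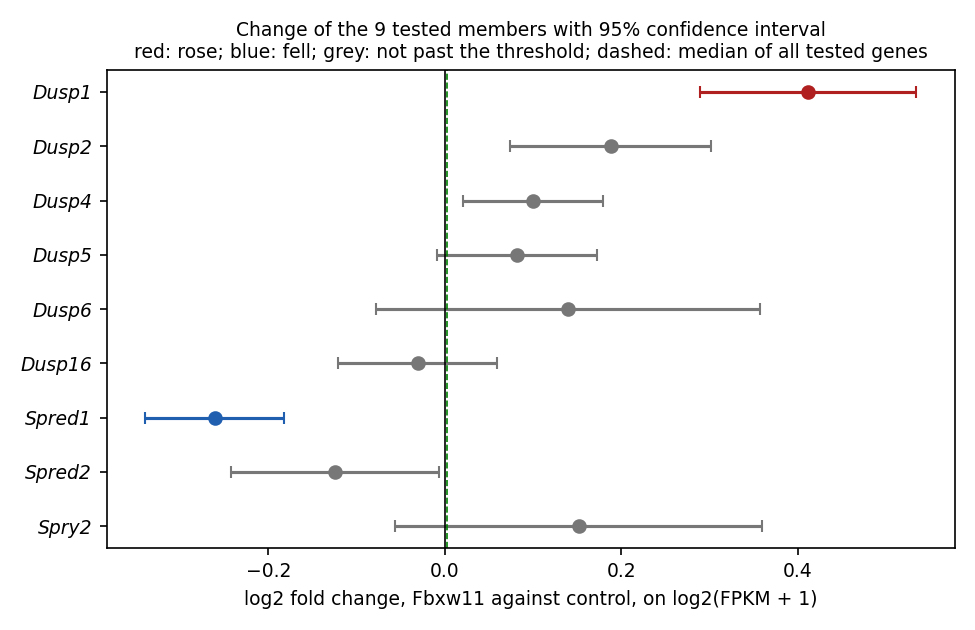
Log2 fold change of the 9 tested members (x axis, Fbxw11 against control, on log2(FPKM + 1)) with its 95% confidence interval from limma; the dashed line is the median of all tested genes, 0.0029. Dusp1 (0.41) and Spred1 (-0.26) are the coloured points past the threshold, and the intervals of Dusp5, Dusp6, Dusp16 and Spry2 include 0.

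A single gene made up most of each family's summed level. Dusp4 made up 62.8% ± 0.914 of the summed phosphatase FPKM in control and 61.5% ± 0.404 in Fbxw11 libraries (SD, n = 3). Dusp1 made up 10.03% ± 0.212 and 12.3% ± 0.672. Summed over the 6 phosphatases, the level was 203 FPKM in each control library and 229, 216 and 221 FPKM in the Fbxw11 libraries, so every Fbxw11 sum was higher, and this held on TPM and plain read sums too. Spred1 made up 81.2% ± 1.16 of the summed Sprouty and Spred FPKM in control and 79.2% ± 0.235 in Fbxw11 libraries. That sum was 79.6, 78.4 and 77.1 FPKM in control and 65.3, 67.5 and 67.6 FPKM in Fbxw11 libraries, lower in all of the latter on each of the 3 scales. These sums were not tested.

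In order of mean level the members ran Dusp4, Spred1, Dusp5, Dusp1, Dusp16, Spred2, Dusp6, Dusp2, Spry2 and Spry1. Dusp5 and Dusp1 changed places between the groups: Dusp5 was above Dusp1 in each control library (22.3 to 23.8 FPKM against 19.8 to 20.6) and below it in each Fbxw11 library (24.3 to 25.04 FPKM against 25.5 to 29.0). Spred2 and Dusp6 were neighbours that nearly met in Fbxw11 library 1, at 11.4 and 11.3 FPKM. No neighbours in this order overlapped within a group.

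A ratio of genes within a library does not depend on how libraries were scaled. Dusp1 over Spred1 was 0.304, 0.328 and 0.327 in control and 0.561, 0.516 and 0.478 in Fbxw11 libraries, 1.62-fold higher on average with no overlap; the pair was chosen for its change, so this is a description. Dusp1 over Dusp4, the family's most abundant gene, was 0.154, 0.164 and 0.162 in control and 0.207, 0.209 and 0.187 in Fbxw11 libraries. Spred1 over Dusp4 moved from 0.507, 0.500 and 0.494 to 0.369, 0.405 and 0.391. The ratios of Dusp1 and of Spred1 to Dusp4 thus separate the groups without any library scaling. Such a ratio also carries the change of the gene it is divided by. Dusp4 was itself higher in every Fbxw11 library, which lowers each ratio to it there and so adds to the fall of Spred1 over Dusp4. Spred1 over Spred2 left almost no gap between the groups. Spred2 was itself lower in every Fbxw11 library, which raises each ratio to it there and so takes away from the fall. Dusp16 had the smallest log2 difference of the tested members (-0.03). Spred1 over Dusp16 was 3.66 ± 0.179 in control and 3.12 ± 0.0973 in Fbxw11 libraries (SD, n = 3), with no overlap. Dusp1 over Dusp16 was 1.17 ± 0.0436 and 1.61 ± 0.0879, also with no overlap. How far Spred1 separates thus depends on the gene it is divided by.

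Scaling does bear on the direction of small differences. The library size used by the authors was 1.014 to 1.018 times the summed reads in control and 0.987 to 0.993 times in Fbxw11 libraries, which raises Fbxw11 values relative to controls. Over all genes, 501 rose and 506 fell on the deposited scale, 348 and 712 on TPM, and 381 and 691 on plain read sums. On these 3 scales Dusp1 had a log2 fold change of 0.41, 0.38 and 0.38 and Spred1 of -0.26, -0.31 and -0.30, past the threshold each time.

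**Figure D3:**
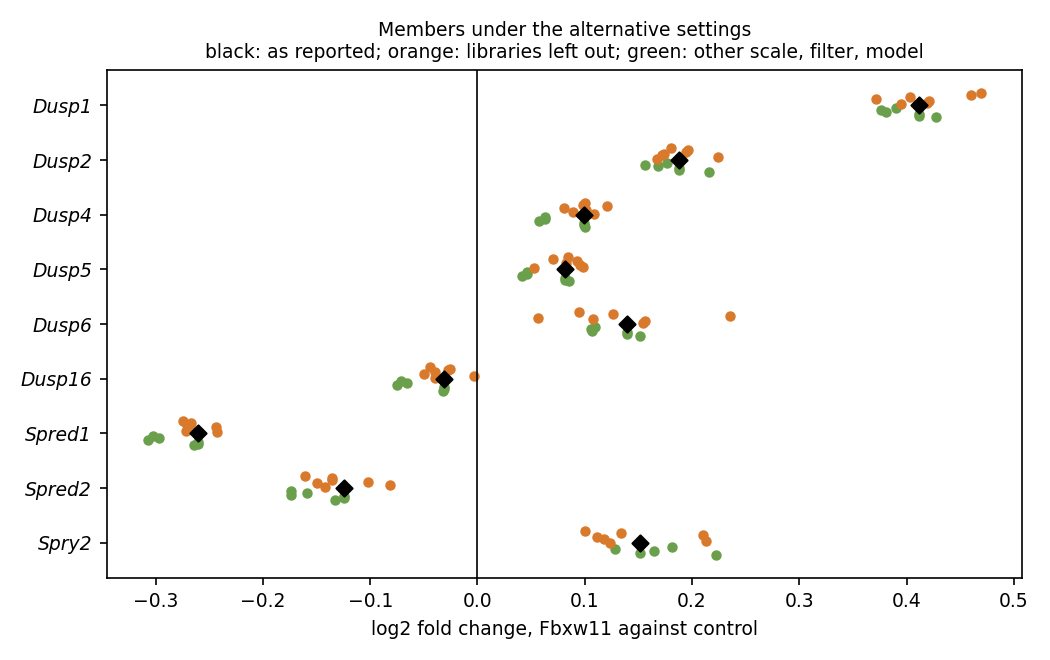
Log2 fold change of each tested member (x axis, Fbxw11 against control) as reported (black) and under up to 14 other settings: libraries left out (orange) or another scale, filter or model (green). Dusp1 stays between 0.37 and 0.47 and Spred1 between -0.31 and -0.24, and no member crosses 0.

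The rest of the pathway was read from 6 lists of other genes. Over the 10898 tested genes, an unadjusted limma p of 0.0499 had rank 2678 from the smallest, so an unadjusted p under 0.05 was common. None of the 13 tested members of the other Dusp, Sprouty and Spred genes passed limma (17 listed, 3 too low to test, Spry3 not among the table's names), 1 had an unadjusted p under 0.05, and limma's voom model on recovered reads called 0. Their log2 fold changes ran from -0.05 to 0.22 with a median of 0.05. Dusp3, the most abundant of them and a small phosphatase of ERK and JNK, was at 18.4 ± 0.772 FPKM in control libraries and 19.1 ± 0.640 FPKM in Fbxw11 libraries (SD, n = 3; log2 0.05, adjusted p = 0.551).

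Of 13 tested ERK cascade kinases, none passed limma. An unadjusted p under 0.05, common over all tested genes, was seen in 4. The voom model called 1 (Braf, lower, named after its value was seen). The list's median was 0.0027. Map2k1, which phosphorylates ERK and was the most abundant, was at 53.3, 52.9 and 57.1 FPKM in control and 61.2, 62.0 and 59.8 FPKM in Fbxw11 libraries, groups that do not overlap (log2 0.16, limma adjusted p = 0.0539). It passed in 3 of 14 other settings, all with the same sign, among them leaving out control library 3 (log2 0.20).

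Among 13 tested p38 and JNK cascade kinases, 1 rose and none fell, with a median of -0.03. The riser was Mapkapk2, the kinase through which p38 stabilises cytokine mRNAs, at 172, 175 and 172 FPKM in control and 208, 198 and 202 FPKM in Fbxw11 libraries. Its Fbxw11 values were all higher (log2 0.23, SE 0.032, limma adjusted p = 0.00907).

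From receptor to Ras, 1 of 10 tested genes rose and none fell, with a median of -0.02. Gab2, a docking adaptor that recruits the phosphatase Shp2, was at 21.1, 18.8 and 19.5 FPKM in control and 23.8, 24.3 and 23.0 FPKM in Fbxw11 libraries (log2 0.25, SE 0.049, limma adjusted p = 0.0257). The groups did not overlap, but the call was lost in 8 of 14 other settings, including leaving out control library 2 or 3 or Fbxw11 library 1 or 2, with adjusted p between 0.00646 and 0.0927 over all of them.

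Of 15 other negative regulators of Ras and ERK that were tested, 1 rose and none fell, with a median of 0.03. Pea15a, which holds ERK in the cytoplasm, was at 54.6, 55.3 and 55.0 FPKM in control and 66.0, 65.5 and 65.6 FPKM in Fbxw11 libraries. The libraries of each group lay within 1 FPKM of each other (log2 0.25, SE 0.027, limma adjusted p = 0.00348).

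Of 9 tested genes that commonly respond to ERK (15 listed, 6 too low to test), 1 rose and 2 fell, with a median of -0.03. Over all tested genes, 4.60% rose and 4.64% fell. Phlda1, a pleckstrin-homology protein induced by ERK, rose from 21.8, 21.1 and 21.8 FPKM in control to 32.8, 30.3 and 32.3 FPKM in Fbxw11 libraries (log2 0.54, SE 0.041, limma adjusted p = 0.00122). Ccnd1, the G1 cyclin D1, fell from 16.9, 17.6 and 17.6 FPKM to 14.3, 13.5 and 14.7 FPKM (log2 -0.27, limma adjusted p = 0.0121). Egr1, an immediate-early transcription factor, fell from 24.7, 25.6 and 23.1 FPKM to 20.7, 18.9 and 19.8 FPKM (log2 -0.29, limma adjusted p = 0.0194). In none of these 3 did the groups overlap. The call on Ccnd1 was lost without control library 2 (adjusted p = 0.0607), and that on Egr1 in 5 of 14 other settings, among them leaving out control library 1 or 2 or Fbxw11 library 2 or 3.

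**Figure D4:**
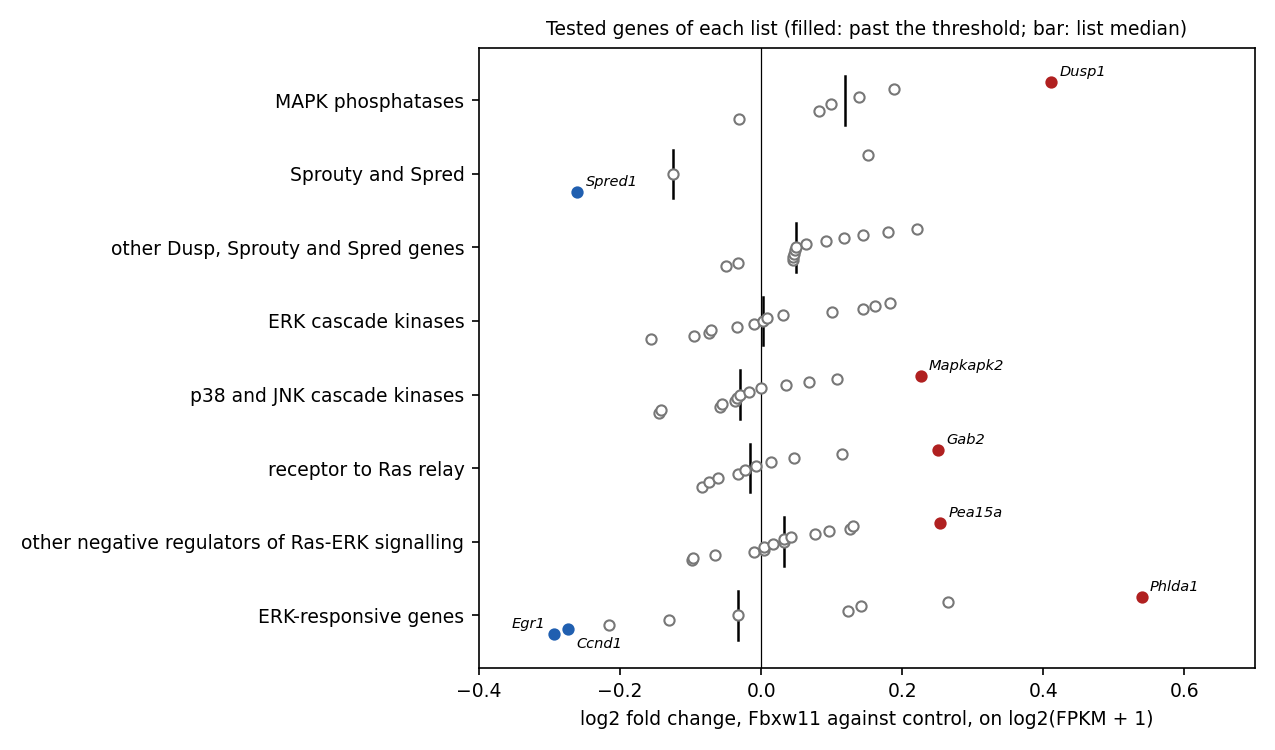
Log2 fold change (x axis, Fbxw11 against control, on log2(FPKM + 1)) of every tested gene in the members' families and the 6 other lists, with a bar at each list's median; filled points passed the threshold. Each list has at most 3 filled points, and the list medians lie between -0.12 (Sprouty and Spred) and 0.12 (MAPK phosphatases).

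The genes whose pattern over the 6 libraries was most like that of Dusp1, by Pearson's r of log2(FPKM + 1), were Soat2 (0.997), which esterifies cholesterol, Ctsb (0.997), a lysosomal protease, and Ptgir (0.996), the prostacyclin receptor. Soat2 averaged 46.1 ± 0.565 FPKM in control libraries and 54.6 ± 2.05 FPKM in Fbxw11 libraries (SD, n = 3). For Spred1 they were Selenoi (0.999), an enzyme of phospholipid synthesis, Mastl (0.998), a mitotic kinase, and Smc2 (0.998), a condensin subunit. Smc2 averaged 31.5 ± 0.859 FPKM in control libraries and 21.04 ± 0.933 FPKM in Fbxw11 libraries. These are descriptions over 6 libraries that share the same 2 groups, with no test.

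Messages of inducible genes often carry AU-rich elements in the 3′ untranslated region (UTR), which shorten their life, and these were counted in GENCODE M21 transcripts. The 3′ UTR of Dusp1, 693 bases long, holds 4 copies of AUUUA and 3 of the longer UAUUUAU. That of Spred1, 4333 bases long, holds 12 and 3. Only 3.24% of 9487 tested genes with a 3′ UTR have 3 or more copies of UAUUUAU, and 27.2% have any. Spry1 and Spry2 have 2 copies each, Dusp2 and Spred2 have 1, and Dusp4, Dusp5, Dusp6 and Dusp16 have none. Longer UTRs can hold more copies, and the median 3′ UTR of the tested genes was 932 bases, so the density of AUUUA was also read. The share with 3 or more copies of UAUUUAU was not matched for UTR length. Per kilobase, AUUUA was densest in Dusp2 (6.85) and Dusp1 (5.77), with Spred1 at 2.77 and a median of 1.26 over all tested genes. These are counts of letters and say nothing of how fast any message decays here.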

How the data were processed

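RNA-seq libraries, 3 per group by their labels, were read from a table of FPKM, which the authors deposited with gene names and gene lengths. No source used here names the aligner, counter or annotation. Per the submitters' processing notes, the build was mm10. Of 52036 gene identifiers shared with GENCODE M21 (GRCm38), 2.758% had the same start and end, so gene coordinates of the table are not printed. FPKM times gene length gave whole reads for 100% of values above 0, within 0.02 reads.

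Genes averaging 1 FPKM or more were tested with limma 3.58.1 (R 4.3.3; lmFit, eBayes with trend, two-sided) on log2(FPKM + 1), which understates changes of low genes. The procedure was also run on simulated reads with a single fixed dispersion and no library set apart. Those settings differ from these data, so that run does not bear on the calls here. Alternatives were another pseudocount (0.1), other filters, TPM, plain read sums, a replicate block and leaving out libraries; a voom fit on recovered reads was added after seeing the data. "Rose" and "fell" mean an adjusted p under 0.05.

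The members and lists were chosen with earlier results of these data known. The text names Fbxw11, all members, from each list up to 3 called genes per direction by smallest p (the most abundant where none passed), and for Dusp1 and Spred1 the 3 tested protein-coding genes most correlated with each. Some names chosen after values were seen are marked so. Upstream sequences are RefSeq's; 9 of 10 members matched, and Dusp4 was not matched. Motifs were searched by exact letters; UTRs are those of the transcript with the longest coding sequence. Intervals from reads cover counting error only.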

Additional observations from a re-analysis of the deposited data

How the results depend on the processing

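Over 14 alternatives, the calls on Dusp1 and Spred1 held and no other member was called; no member, and no list gene named by the rule, changed sign. Spry2 has no value at a mean of at least 5 FPKM. The adjusted p of Dusp1 lay between 0.000407 and 0.0328, and that of Spred1 between 7.16e-05 and 0.0342. The count of called genes, 1007, was 596 without the FPKM filter, 1559 with voom, 621 with the replicate block, and 409 to 801 with 1 library left out (448 without control replicate 1, 409 without control replicate 2, 567 without Fbxw11 replicate 1, 533 without Fbxw11 replicate 2). Correlations did not settle whether replicate numbers pair the samples. The correlation of deviations between same-numbered libraries was 0.0361, 0.0405 and 0.189 (the libraries numbered 3). The last was the highest of all pairs, whereas control 1 correlated best with Fbxw11 2 (0.148). Each library numbered 3 correlated negatively with libraries 1 and 2 of the other group (-0.0534 to -0.162). Deviations from a group mean cancel over the libraries of that group, so a positive correlation must be balanced by negative correlation elsewhere. These negative values are therefore no separate observation on pairing. A batch shared by same-numbered libraries was not tested. With the replicate block 2 members were called, and of the called list genes named by the rule Gab2 lost its call.

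Of the ERK cascade kinases, 1 was called at a mean of at least 5 FPKM, 1 with voom, 1 without both libraries numbered 3, and 0 to 1 with 1 library left out. Of the p38 and JNK cascade kinases, 2 were called on TPM, 2 on plain read sums (Mapkapk2 and, lower, Map2k3) and 3 with voom (Mapk9 besides); Map2k3 and Mapk9 were named after their values were seen. From receptor to Ras, 0 were called without the filter, 0 on TPM, 0 with the replicate block, 0 without both libraries numbered 3, and 0 to 1 with 1 library left out. ERK-responsive genes gave 1 to 3 calls with 1 library left out. Each of these moves is 1 or 2 calls; the cause was not tested. The planned edgeR and DESeq2 tests were not run; voom on recovered reads was fitted in their place. Depth limits Spry1 and Spry2.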
